A study of Mus musculus with 6 samples.

Results

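The complement and coagulation genes examined here are 35 mouse genes chosen by name, 16 of complement and 19 of coagulation. Of these, 33 had a probe set paired with exactly 1 gene symbol, 15 of complement and 18 of coagulation, among 22180 genes measured in this way. Masp2 and Klkb1 shared a probe set with another gene and have no value here. The cells were primary hepatocytes of adult male wild-type C57Bl/6 mice, cultured without serum. In 1 group they were exposed for 4 h to 2 µM GW4064, a small molecule that activates FXR, the nuclear receptor for bile acids, and in the other to the solvent DMSO. Each group holds 3 one-colour Affymetrix arrays numbered 1 to 3, and the design text names 3 independent preparations. Values are log2 intensities after RMA, the authors' array normalization, and a change is GW4064 minus DMSO on that scale. Precision is limited by having 3 arrays a group, and p-values measure the spread between these arrays.

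Complement is a cascade of plasma proteins that marks and lyses microbes. Its lectin and classical arms start from pattern-binding proteins and their proteases, the alternative arm amplifies the reaction, and the terminal proteins form the membrane attack complex. Coagulation is a parallel cascade of proteases that ends in thrombin, which turns fibrinogen into fibrin, with inhibitors that restrain it and plasmin that dissolves the clot. The hepatocyte makes most of these proteins. In human liver cells, fibrinogen and kininogen genes have been reported as FXR targets.

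The 3 fibrinogen chain genes are neighbours on mouse chromosome 3 with no other protein-coding gene between them, and their 250 bases before the start are shown because these genes are the reported FXR targets with a promoter entry. The same stretch is shown for C6 and Serpinc1, the members with the smallest p in each branch that have an entry, and for C9, chosen after its values were seen as the member that differed most between replicate numbers. Kng1, Masp1 and Proc have no entry. Sequences are from RefSeq, build GRCm38.p6, written 5′ to 3′ on the strand of the gene. Capitals mark AGGTCA, a single half-site of nuclear receptor elements, and TTGCNNAA, a C/EBP-type element, on either strand.
Fga (chr3:83025903-83026152, + strand): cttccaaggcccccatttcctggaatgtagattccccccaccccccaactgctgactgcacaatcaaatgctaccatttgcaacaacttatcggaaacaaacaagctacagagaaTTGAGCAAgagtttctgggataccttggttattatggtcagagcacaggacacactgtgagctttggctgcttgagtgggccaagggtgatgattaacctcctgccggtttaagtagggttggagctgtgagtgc
Fgb (chr3:83049864-83050113, - strand): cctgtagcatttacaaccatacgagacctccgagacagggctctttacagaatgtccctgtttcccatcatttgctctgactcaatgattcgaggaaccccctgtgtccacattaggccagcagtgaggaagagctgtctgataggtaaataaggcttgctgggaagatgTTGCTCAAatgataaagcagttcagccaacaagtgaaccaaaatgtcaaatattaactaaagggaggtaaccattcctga
Fgg (chr3:83007474-83007723, + strand): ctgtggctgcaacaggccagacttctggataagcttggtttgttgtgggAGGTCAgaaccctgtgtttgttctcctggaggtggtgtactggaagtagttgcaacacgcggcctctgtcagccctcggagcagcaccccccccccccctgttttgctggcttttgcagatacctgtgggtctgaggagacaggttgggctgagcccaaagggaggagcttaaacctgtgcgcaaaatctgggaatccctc
C6 (chr15:4726960-4727209, + strand): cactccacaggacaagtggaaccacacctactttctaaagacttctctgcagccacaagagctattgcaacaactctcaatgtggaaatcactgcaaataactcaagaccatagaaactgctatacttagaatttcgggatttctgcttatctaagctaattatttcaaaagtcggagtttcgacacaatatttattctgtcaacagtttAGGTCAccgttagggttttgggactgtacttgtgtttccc
Serpinc1 (chr1:160978333-160978582, + strand): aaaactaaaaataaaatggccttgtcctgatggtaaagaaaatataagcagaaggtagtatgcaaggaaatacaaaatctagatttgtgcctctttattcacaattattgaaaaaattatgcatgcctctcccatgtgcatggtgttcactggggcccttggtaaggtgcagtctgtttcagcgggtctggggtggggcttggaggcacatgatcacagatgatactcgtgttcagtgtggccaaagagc
C9 (chr15:6445096-6445345, + strand): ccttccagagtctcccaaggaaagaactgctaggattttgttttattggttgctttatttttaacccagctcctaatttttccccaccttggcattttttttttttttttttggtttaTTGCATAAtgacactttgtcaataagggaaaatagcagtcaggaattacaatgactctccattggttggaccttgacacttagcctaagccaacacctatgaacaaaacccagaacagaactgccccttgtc

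In these windows Fga, Fgb and C9 each held 1 TTGCNNAA match, starting at bases -135, -80 and -132, and Fgg and C6 each held 1 AGGTCA match, at -201 and -40. Serpinc1 held neither run of letters. A promoter entry existed for 25 of the 33 measured members, with 27 start sites. On either strand, AGGTCA lay in 9 of these 27 windows, or 33.3%, against 14.0% of all 32851 windows of this length. TTGCNNAA, likewise on either strand, lay in 6, or 22.2%, against 9.56% of all windows. The classical FXR element, an inverted repeat of GGTCA with 1 base between its arms, was searched without mismatches and can overlap an AGGTCA match. It lay in 0 of the 27 windows and in 0.0335% of all windows. At so low a share, a count of 0 in 27 windows says little of these genes. These matches describe letters in a 250-base window only.

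All 10 hepatocyte markers lay above the median gene level. So did 6 of 10 endothelial, 3 of 5 cholangiocyte, 2 of 10 stellate cell, 2 of 14 macrophage and 0 of 6 neutrophil markers. Abcb11 and Nr0b2, the bile salt export pump gene and the SHP gene, both direct FXR targets, had log2 changes of 3.08 (SE 0.13) and 2.37 (SE 0.12). Nr1h4, the FXR gene, had -0.72 (SE 0.09, adjusted p = 0.0535, limma). Of all 22180 genes, limma called 11 at an adjusted p under 0.05, or 0.0496%. With the replicate number as a block it called 18, or 0.0812%. Same-numbered arrays deviated together, so values of the fit with the block are added for part of the genes. An SE, interval or adjusted p of a change without that label is from the fit without the block. The median SE of the members was 0.146 without the block and 0.089 with it.

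GW4064 changed none of the 33 measured members at an adjusted p under 0.05, against 11 of all 22180 genes. The smallest adjusted p among the members was 0.858 without the block and 0.299 with it (limma, Benjamini-Hochberg over all genes), both for C6. The changes were small, from -0.48 for C6 to 0.275 for Serpinc1. In 24 of the 33 the 95% interval of the fold lay wholly within 1.5-fold either way, and in 32 with the block. Of all 22180 genes, 20461 had such an interval without the block and 21186 with it. At an unadjusted p under 0.05, 1 member was lower, or 3.03%, against 3.06% of all genes, and 0 were higher, against 2.6%. With the block 4 were lower, or 12.1%, against 5.12% of all genes, and 1 was higher, against 4.01%. These 4 were C6, Mbl1, Masp1 and Mbl2, all of complement, and the higher one was Serpinc1.

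**Figure D1:**
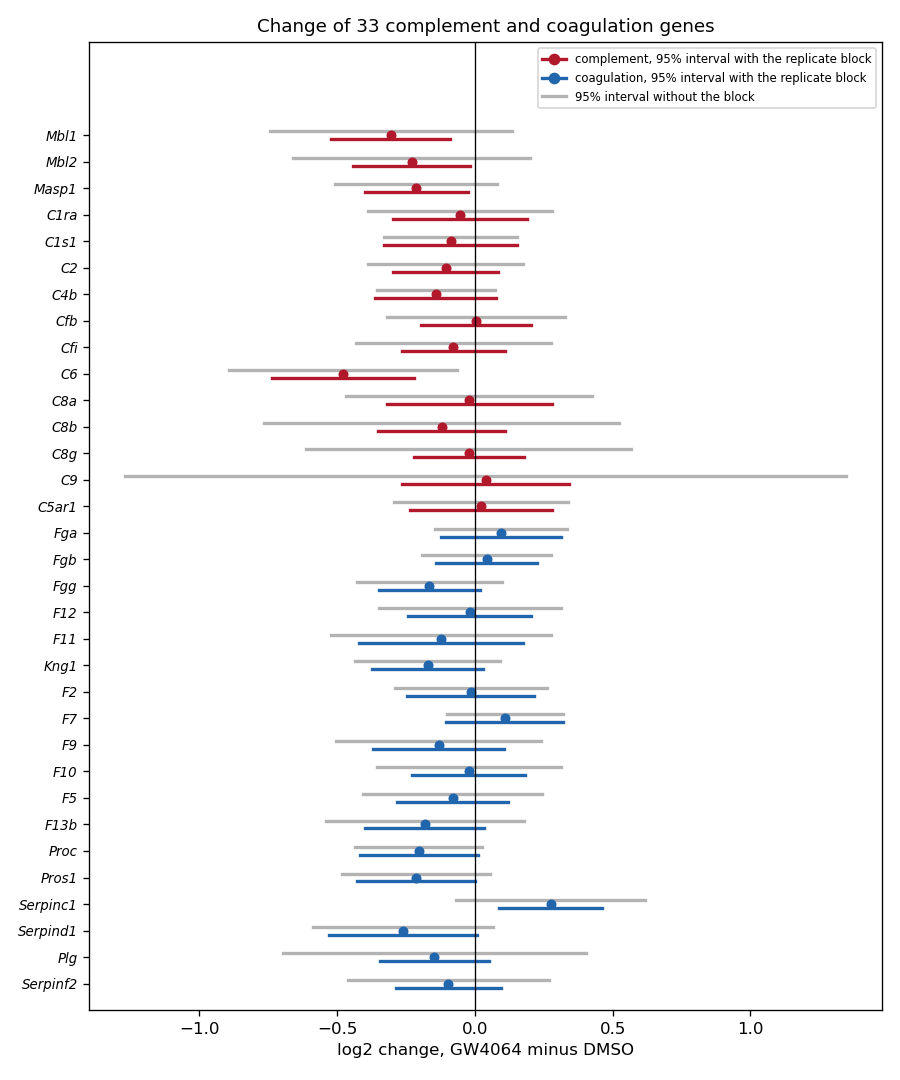
Log2 change of each of the 33 measured members, GW4064 minus DMSO, with complement genes in red and coagulation genes in blue. Points are the mean changes of 3 arrays per group, coloured lines are 95% intervals with the replicate number as a block and grey lines are those without it. Most points lie left of 0, C6 lies lowest and Serpinc1 highest, and C9 has the widest grey line.

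The fibrinogen chains did not show a common direction. Fga, the alpha chain, had log2 levels of 9.69, 9.79 and 9.49 on GW4064 arrays 1, 2 and 3, against 9.49, 9.62 and 9.56 on the DMSO arrays. That is a fold of 1.07 (95% interval 0.904 to 1.26). Fgb, the beta chain, lay at 11.94, 12.02 and 11.79 with GW4064 and at 11.87, 11.97 and 11.77 with DMSO. The groups overlapped for both genes, although Fgb was the higher one with GW4064 in each same-numbered pair, by 0.02 to 0.06. The fold of Fgb was 1.03, with a 95% interval whose bounds were 0.875 and 1.21. Fgg, the gamma chain, lay at 9.40, 9.45 and 9.17 with GW4064 and at 9.55, 9.62 and 9.35 with DMSO. Its groups overlapped too, yet the pair differences were alike, at -0.15, -0.17 and -0.18, with a fold of 0.892 (95% interval 0.744 to 1.07, or 0.785 to 1.01 with the block). The adjusted p was 0.588 with the block.

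Kng1, the kininogen gene, encodes the substrate from which plasma kallikrein releases bradykinin and a cofactor of the contact system. Its levels were 8.002, 8.26 and 7.98 on the GW4064 arrays and 8.29, 8.36 and 8.10 on the DMSO arrays. It was lower with GW4064 in all 3 pairs, by values of -0.29, -0.10 and -0.12, while the groups overlapped. Its fold of 0.888 had a 95% interval of 0.740 to 1.06, or 0.772 to 1.02 with the block. The adjusted p was 0.605 with the block (limma). Kng2, the second kininogen gene of the mouse, had -0.08 (SE 0.10). Probes of near-identical copies can take up each other's transcripts, which for kininogen and for C4b, C1ra and C1s1 makes the split between copies uncertain. The other contact factors measured, F12 and F11, had changes of -0.02 (SE 0.15) and -0.12 (SE 0.18).

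Among complement members, the lectin-arm genes and C6 held the lower values. Mbl1 and Mbl2 encode the mannose-binding lectins, which recognise microbial sugars, and Masp1 encodes a protease bound to them. Mbl1 had log2 levels of 3.53, 4.15 and 3.77 with GW4064 and 3.95, 4.5 and 3.92 with DMSO, a change of -0.31 (SE 0.19, or 0.09 with the block). Mbl2 lay at 8.56, 9.28 and 8.82 with GW4064 and at 8.95, 9.41 and 8.99 with DMSO, a change of -0.23 (SE 0.19, or 0.09 with the block). Masp1 lay at 7.95, 7.61 and 7.62 with GW4064 and at 8.14, 7.87 and 7.82 with DMSO, a change of -0.21 (SE 0.13, or 0.08 with the block). All 3 measured lectin-arm members were lower in each of the 3 pairs, and in each gene the groups overlapped. Outside the members, the lectin-arm recognition genes Colec10, Colec11 and Fcna had -0.13, 0.17 and -0.10. None of them was lower in every pair. The mean level of Mbl1 was at percentile 46.4 of all genes, below the median. With arrays or pairs left out the change lay between -0.47 and -0.12 for Mbl1, -0.42 and -0.07 for Mbl2 and -0.32 and -0.12 for Masp1. The adjusted p with the block was 0.420 for Mbl1, 0.518 for Mbl2 and 0.502 for Masp1.

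C6, a component of the membrane attack complex, had the lowest change of any member. Its levels were 5.48, 5.30 and 4.74 on GW4064 arrays 1, 2 and 3, and 5.83, 5.65 and 5.48 on the DMSO arrays. Every GW4064 array lay below every DMSO array, by less than 0.01 at the closest point. The fold was 0.718, with a 95% interval of 0.538 to 0.957, or 0.601 to 0.857 with the block. The change ran from -0.63 to -0.26 with single arrays or pairs left out. C6 and Proc were the 2 members, or 6.06%, whose groups did not overlap in the lower direction, against 6.19% of all genes and 7.28% of those above the median level. In 0 members did every GW4064 array lie above every DMSO array, against 4.58% of all genes. These shares do not stand above the background.

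The remaining complement members lay close to 0. The classical proteases C1ra and C1s1 had -0.05 (SE 0.15) and -0.09 (SE 0.11), and C2, one of their substrates, -0.11 (SE 0.13). C4b, the other substrate, lay at 8.24, 8.08 and 8.08 with GW4064 and at 8.20, 8.32 and 8.30 with DMSO, a change of -0.14 with overlapping groups. C1s1 has 2 probe sets, and the dimmer one went the other way, with 0.09. Cfb, the alternative pathway protease, had 0.00 (SE 0.14), and Cfi, which inactivates C3b and C4b, -0.08 (SE 0.16). The 3 chains of C8 had -0.02 for C8a (SE 0.20), -0.12 for C8b (SE 0.28) and -0.02 for C8g (SE 0.26). With the block these SEs were 0.12, 0.10 and 0.08. C9, which forms the pore, had 0.04 with an SE of 0.58, or 0.13 with the block. C5ar1, the receptor of the C5a fragment and a gene chiefly of myeloid cells, had 3.01, 2.80 and 3.27 with GW4064 and 3.18, 2.85 and 2.99 with DMSO. Its groups overlapped, and its mean level was at percentile 27.3 of all genes.

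Among coagulation members the 4 anticoagulant genes had the values furthest from 0, and they did not share a sign. Outside the members, Plat and Thbd lay further from 0, with 0.59 and 0.56. Serpinc1, the gene of antithrombin, had log2 levels of 8.87, 8.67 and 8.39 with GW4064 and 8.55, 8.43 and 8.12 with DMSO. The groups overlapped, whereas the pair differences of 0.32, 0.24 and 0.27 were close to each other. Its fold was 1.21 (95% interval 0.955 to 1.53, or 1.06 to 1.38 with the block), and limma gave an adjusted p of 0.942, or 0.398 with replicate number as a block. Proc, the gene of the anticoagulant protease protein C, lay at 8.33, 8.36 and 8.38 with GW4064 and at 8.47, 8.73 and 8.48 with DMSO. Its groups did not overlap, and its fold was 0.868 (95% interval 0.740 to 1.02, or 0.748 to 1.01 with the block). Pros1, the gene of its cofactor protein S, lay at 7.40, 7.497 and 7.11 with GW4064 and at 7.58, 7.59 and 7.48 with DMSO, a change of -0.21 (SE 0.12). Serpind1, the gene of the thrombin inhibitor heparin cofactor II, lay at 7.74, 8.03 and 7.46 with GW4064 and at 7.90, 8.11 and 8.004 with DMSO, a change of -0.26 (SE 0.14). Both had overlapping groups and were lower in all 3 pairs, and neither passed, with adjusted p of 0.549 and 0.557 with the block (limma).

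**Figure D2:**
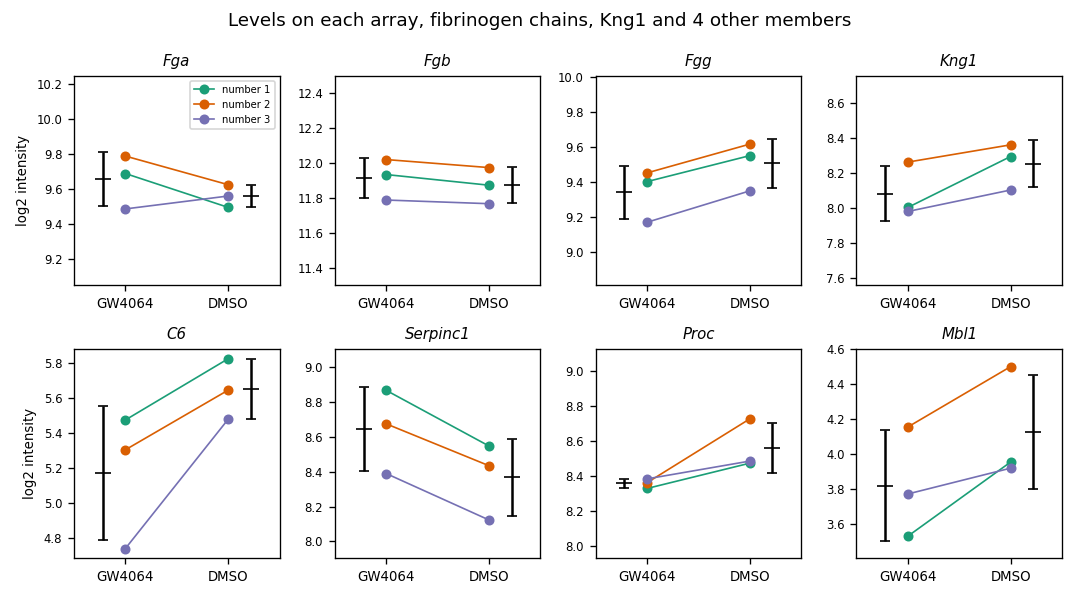
Log2 intensity of 8 members on each array, GW4064 left and DMSO right, with lines joining same-numbered arrays. Black bars are the mean and SD of 3 arrays, and each panel has its own vertical range. The lines of Fgg, Kng1, C6, Proc and Mbl1 are lower at the GW4064 end for every number, and those of Fgb and Serpinc1 are higher.

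The remaining members of clotting and clot lysis had small changes. F2, the prothrombin gene, had a log2 change of -0.02 (SE 0.12), F7 0.11 (SE 0.09), F9 -0.13 (SE 0.17) and F10 -0.02 (SE 0.15). F7 and F10 are neighbours on chromosome 8. F5, the cofactor of factor Xa, had -0.08 (SE 0.14), and F13b, the carrier subunit of the fibrin crosslinking enzyme, -0.18 (SE 0.16). Plg, the plasminogen gene, and Serpinf2, the gene of its inhibitor antiplasmin, had -0.15 (SE 0.24) and -0.10 (SE 0.16) and were lower in all 3 pairs. With the block both SEs were 0.08. The smallest adjusted p of these 8 genes with the block was 0.605, for F13b (limma).

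The shifts of complement and coagulation members lay close together. The median change was -0.088 over 15 complement genes and -0.110 over 18 coagulation genes, beside -0.016 over all genes and -0.029 over genes above the median level, where 30 of the 33 members lie. In pairs 1, 2 and 3 the complement medians were -0.072, -0.099 and -0.163, and the coagulation medians -0.042, -0.095 and -0.115. The medians were thus below 0 in every pair for both branches. Complement had 12 lower and 3 higher means, and coagulation 14 lower and 4 higher. The 26 lower means are 78.8% of the members, beside 55.4% of all genes and 60.7% of genes above the median level. Lower means made up 80.0% of the 10 hepatocyte markers, 72.2% of other hepatocyte plasma proteins and 66.7% of acute phase genes. Ttr is both a hepatocyte marker and one of these plasma proteins, so the lists are not wholly separate. Without GW4064 replicate 3, or without DMSO replicate 1, 17 members were lower.

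By same-numbered pairs, 14 members, or 42.4%, were lower in all 3, against 18.6% of all genes and 24.1% of genes above the median level. They were 6 of complement and 8 of coagulation. In the other direction Fgb and Serpinc1 were higher in all 3 pairs, against 12.6% of all genes. Plasma proteins of the hepatocyte outside both cascades, such as Ttr and Ahsg, had a median change of -0.073, with 7 of 18 lower in all pairs, and acute phase genes -0.076, with 7 of 18. Of 19 other complement and 21 other coagulation genes, 4 and 6 were lower in all pairs, or 21.1% and 28.6%. These shares lie closer to those of all genes, and no test of a difference between lists was made. The summed linear intensity of the 10 hepatocyte markers was 20183 to 20954 with GW4064 and 21246 to 22217 with DMSO, without overlap. That of the 33 members was 11595 to 13973 with GW4064 and 12162 to 14462 with DMSO, with overlap. Cholangiocyte markers, 5 of 6 measured, summed to 249 to 347 with GW4064 and 203 to 258 with DMSO, with 4 of the 5 higher and a median change of 0.106. Stellate cell markers, 10 of 10 measured, had 8 higher, with sums of 195 to 206 with GW4064 and 193 to 205 with DMSO. Single hepatocyte markers had changes from -0.68 to 0.549, with 8 lower and 2 higher. The part of these markers in the members' values was not tested, nor was the cause of the lower hepatocyte sum. Fewer hepatocytes, less RNA per hepatocyte and changes of single marker genes cannot be told apart in such bulk samples.

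**Figure D3:**
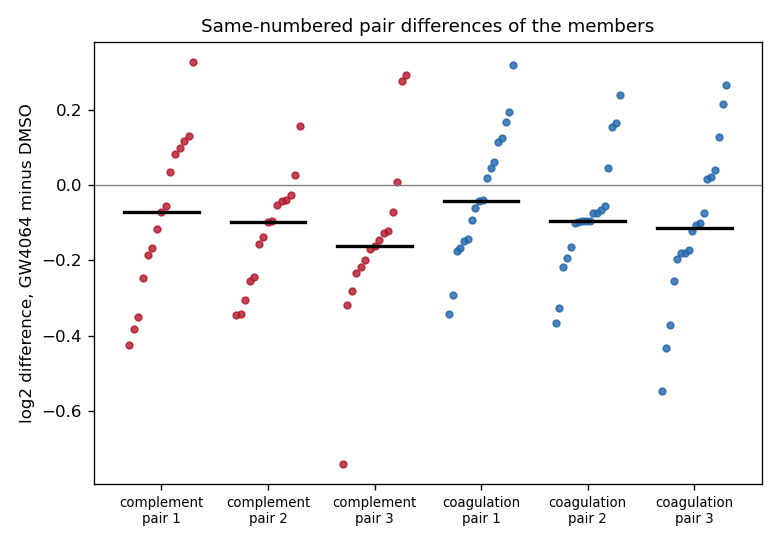
Differences of GW4064 minus DMSO on the log2 scale in same-numbered pairs 1, 2 and 3, with 1 point per gene for 15 complement members (red) and 18 coagulation members (blue). Black lines are medians, which lie below 0 in all 6 columns, from -0.163 to -0.042. C6 in pair 3 is the lowest point.

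Members also differed between replicate numbers. The range over the 3 numbers, each taken as the mean of its GW4064 and DMSO arrays, was larger than the change with GW4064 in 30 of 33 members, against 78.8% of all genes. A range over 3 means of 2 arrays and a difference of 2 means of 3 arrays are unlike measures, and the range is the larger for most genes, so the count says little of the members. The median range was 0.46 over complement and 0.36 over coagulation members, beside 0.19 over all genes. It was 0.39 over hepatocyte markers, 0.29 over acute phase genes and 0.24 over other hepatocyte plasma proteins. A limma F test of the replicate number, chosen after the data were seen, called 4 members, or 12.1%, against 1.07% of all genes and 1.97% of those above the median level. They were C9, C8g and C8b of the attack complex and Plg. The same test called 4 of 18 acute phase genes, or 22.2%, and 2 of 18 other hepatocyte plasma proteins, or 11.1%. It called 1 of 10 hepatocyte markers, 2 of 21 other coagulation genes and 1 of 19 other complement genes. The count is thus not particular to the members. The labels do not say that a number marks a preparation, nor whether preparations differed in animals or only in day.

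C9 differed most. Its log2 levels were 7.60, 6.43 and 5.60 on GW4064 arrays 1, 2 and 3, and 7.47, 6.73 and 5.31 on the DMSO arrays. The arrays numbered 1 and 3 lay 4.23-fold apart (adjusted p = 0.0143, limma F test). C8b had 8.39, 7.77 and 7.30 with GW4064 and 8.46, 7.75 and 7.62 with DMSO (adjusted p = 0.0422). C8g, the gamma chain gene of C8, had 6.93, 6.60 and 5.95 with GW4064 and 6.85, 6.62 and 6.07 with DMSO (adjusted p = 0.0358). In these 3 genes, and in C6 and C8a, arrays numbered 1 were the highest and those numbered 3 the lowest in both groups. Plg showed the same order, with 7.93, 7.44 and 7.02 with GW4064 and 8.02, 7.54 and 7.27 with DMSO (adjusted p = 0.0430). Vtn, whose product vitronectin restrains the attack complex, is named after its values were seen. It also differed among the numbers, by 1.00 at most (adjusted p = 0.0316), and was the only 1 called of 19 other complement genes. Clu and Cd59a of that list had their lowest mean in arrays numbered 1 and were not called (adjusted p = 0.475 and 0.30, limma F test).

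**Figure D4:**
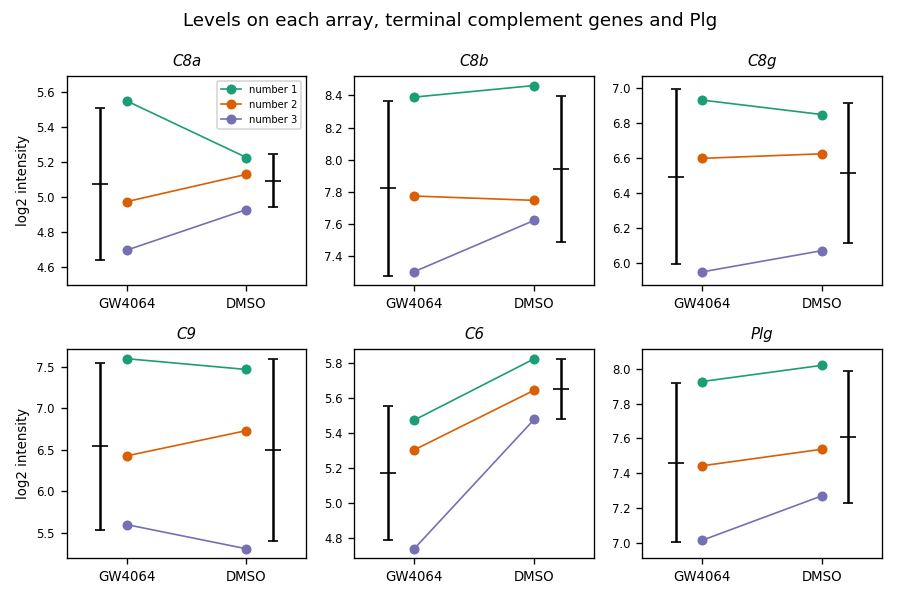
Log2 intensity of the 5 terminal complement members and Plg on each array, GW4064 left and DMSO right. Lines join same-numbered arrays, and black bars are the mean and SD of 3 arrays. Vertical ranges differ between panels. In all 6 panels the arrays numbered 1 are highest and those numbered 3 lowest in both groups. Hc and C7, measured terminal genes outside the members, are not shown and did not have this order.

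Across the members, arrays numbered 3 held the lowest level in both groups for 18 of 33, or 54.5%, against 17.7% of all genes and 22.7% of those above the median level. These were 8 of 15 complement and 10 of 18 coagulation members. Acute phase genes had 11 of 18 and other hepatocyte plasma proteins 9 of 18, while other complement genes had 6 of 19, other coagulation genes 9 of 21 and hepatocyte markers 4 of 10. No difference between these lists was tested. By the mean of both arrays, number 3 was lowest in 27 members, against 36.6% of all genes. In 9 members number 1 was also the highest in both groups, against 5.13% of all genes and 7.1% of those above the median level. F11 and C5ar1 were the members with their highest mean in the arrays numbered 3. C4b and F7 varied least between the numbers, by 0.03 and 0.06. The F test called 4 members and 238 of all genes with all arrays. Without GW4064 replicate 3 or DMSO replicate 3 it called 0 members and 8 of all genes in either case. Without GW4064 replicate 2 it called 1 member and 30 genes, and without DMSO replicate 2, 1 member and 49 genes. Without GW4064 replicate 1 it called 1 member and 264 genes, and without DMSO replicate 1, 2 members and 242 genes. A single array left out leaves 1 residual degree of freedom per gene in this fit.

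**Figure D5:**
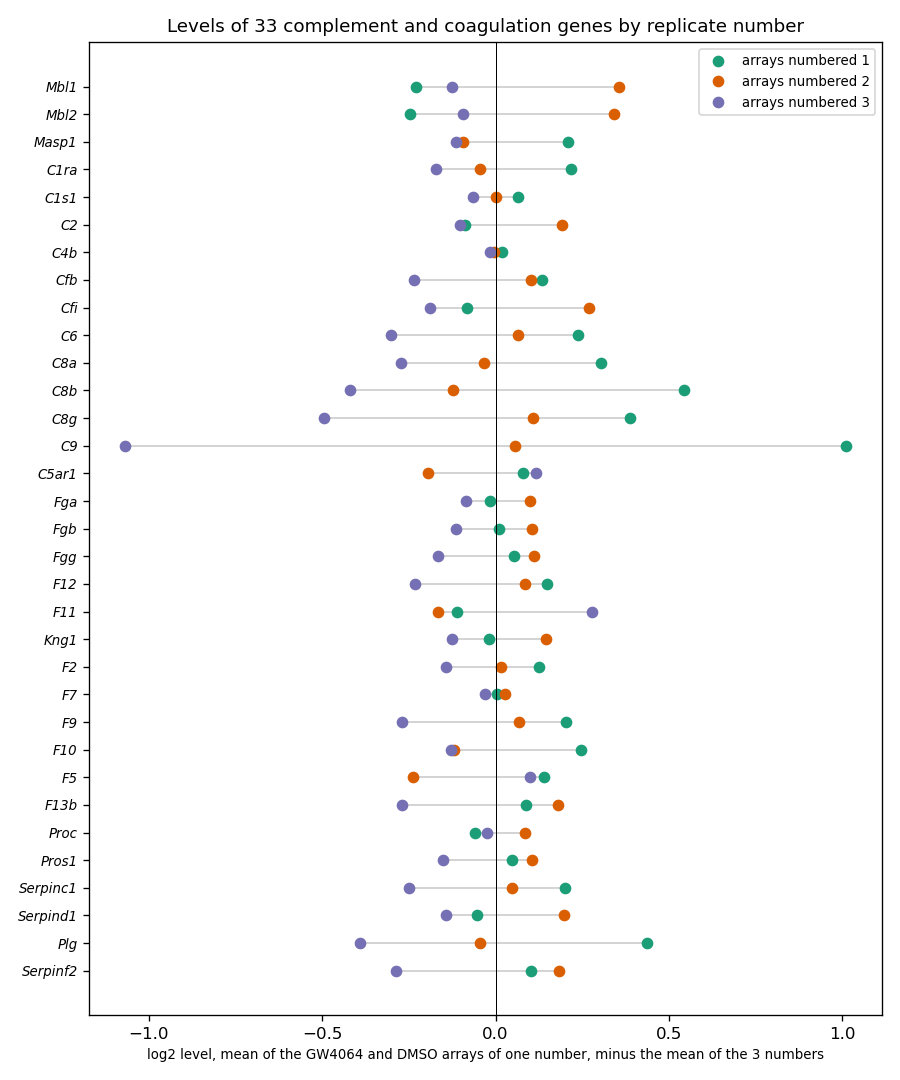
Log2 level of each of the 33 members by replicate number, taken as the mean of the GW4064 and DMSO arrays of that number minus the mean over the 3 numbers. The points for number 3 lie left for most genes, and C9 spans the widest range, 2.08, followed by C8b with 0.96.

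Of 40 further measured genes of these pathways, 19 of complement and 21 of coagulation, none passed in either fit. Complement had 11 lower and 8 higher, with a median of -0.054, and coagulation 13 lower and 8 higher, with -0.043. The lower means are 57.9% and 61.9%, beside 55.4% of all genes. Plat, the gene of tissue plasminogen activator, had 6.75, 7.27 and 6.30 with GW4064 and 6.10, 6.83 and 5.61 with DMSO, higher in each pair by 0.65, 0.44 and 0.69. Its fold was 1.51 (95% interval 0.925 to 2.46, or 1.30 to 1.75 with the block), with an adjusted p of 0.151 with the block. With arrays or pairs left out its log2 change lay between 0.31 and 0.92, beside 0.59 with all arrays. Thbd, the gene of thrombomodulin, the thrombin receptor that activates protein C, had 5.75, 5.75 and 4.64 with GW4064 and 5.01, 5.32 and 4.13 with DMSO. Its groups overlapped as those of Plat did, its pair differences were 0.74, 0.44 and 0.50, and its adjusted p was 0.182 with the block. Its log2 change was 0.56, and between 0.21 and 0.93 with arrays or pairs left out. Cfp, the properdin gene that stabilises the alternative convertase, lay at 4.20 ± 0.07 with GW4064 and 4.49 ± 0.04 with DMSO (mean ± SD, n = 3 each), a change of -0.29 (SE 0.09, adjusted p = 0.751). Its groups did not overlap. Of the other genes with small p, Cd46, a complement regulator, had -0.24 (SE 0.13), C7 of the attack complex 0.17 (SE 0.10) and the fibrinogen-like gene Fgl1 -0.18 (SE 0.12). Plat and Thbd also differed between replicate numbers (adjusted p = 0.0273 and 0.0231).

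Endothelial cells express Plat, Thbd and Vwf as well, and their 10 markers summed to 241 to 334 linear units with GW4064 and 239 to 328 with DMSO. Macrophage markers, 14 of 14 measured, summed to 515 to 1130 with GW4064 and 528 to 1181 with DMSO, and 12 of the 14 lay below the median gene level. Values after RMA do not reach 0. The part of these cells in the values of Plat, Thbd, Cfp and C5ar1 was not tested.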

How the data were processed

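RNA of mouse primary hepatocytes, 3 arrays with GW4064 and 3 with DMSO, was measured on Affymetrix MoGene-2_0-st arrays, and sample titles gave groups and numbers. Intensities were deposited on a log2 scale, 1 value per probe set. The submitters' processing notes name RMA and Partek without versions. As no source states the base, log2 rests on the span of the values, 0.94 to 13.07. Of 41345 probe sets, 23521 have exactly 1 gene symbol in the platform annotation, 1814 several and 16010 none. Per gene the probe set with the highest mean over 6 arrays was kept, leaving 22180 genes. limma 3.58.1 in R 4.3.3 was fitted over all genes without a block or filter, with Benjamini-Hochberg adjustment, and with the replicate number as a block as an alternative. Intervals are 95%.

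Deviations of same-numbered arrays from their group means correlated at 0.26, 0.34 and 0.45, above the 0.1 required, so the numbers were taken to pair the arrays. An exact test of 3 against 3 cannot give a two-sided p below 0.1 and was not used. The members and lists were chosen with earlier results of these data known, and lists are described by counts and medians without a test. Named genes were the fibrinogen chains, Kng1, the 8 members with the smallest p in each fit, members alone in their role, and up to 6 further pathway genes by p, and all other members are summarised. The fits were also run on simulated arrays with known changes. Recovery and the right sign were required only for changes far larger than those of the members. Other settings were quantile normalization, median centring, level filters at percentiles 25 and 50, the mean of probe sets, limma-trend, robust estimation and arrays or pairs left out. Promoter sequences are those of RefSeq, GRCm38.p6.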

Additional observations from a re-analysis of the deposited data

How the results depend on the processing

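No member was called under any of the 17 alternatives, and the lowest member adjusted p among them was 0.299. The count of all genes called was 11, against 18 with the replicate block and between 2 and 5 with arrays or pairs left out. The number of members with a lower mean, 26, ran from 17 to 28 with arrays or pairs left out, and the number lower in every remaining pair, 14, from 16 to 21 with 2 pairs remaining. The median change ran from -0.172 to -0.006 for complement and from -0.182 to -0.009 for coagulation, and complement minus coagulation, 0.022 in the reported setting, from -0.098 to 0.022. The 4 members that differed between replicate numbers became 8 without genes under the median level and 17 with limma-trend, while the count over all genes went with them, at 238 as reported, 669 without those genes and 1759 with limma-trend. The cause was not tested. With arrays or pairs left out, 0 to 2 members and 8 to 347 of all genes were called. Pairing the arrays by number as a block changed no member's call, with 0 members called in both fits. Of the 33 members, 15 kept their sign under every alternative and 18 did not. Only 3 of these 18 turned sign other than by leaving out arrays. Fits with arrays or pairs left out had no block. With a single array left out, a difference between replicate numbers thus enters the change. Under quantile normalization C8g had 0.02 and F10 0.01, and with the mean of its probe sets C1s1 had 0.00. With arrays or pairs left out the log2 changes ran from -0.16 to 0.10 for C1ra, -0.19 to 0.01 for C1s1, -0.12 to 0.12 for Cfb, -0.22 to 0.05 for Cfi, -0.26 to 0.17 for C8a, -0.40 to 0.14 for C8b, -0.24 to 0.25 for C8g, -0.56 to 0.52 for C9, -0.10 to 0.14 for C5ar1, -0.01 to 0.11 for Fgb, -0.14 to 0.09 for F12, -0.27 to 0.09 for F11, -0.12 to 0.09 for F2, -0.31 to 0.02 for F9, -0.18 to 0.07 for F10, -0.20 to 0.03 for F5, -0.38 to 0.07 for Plg and -0.22 to 0.07 for Serpinf2. Among genes that kept their sign, the ranges were -0.24 to -0.08 for Fgg, -0.26 to -0.11 for Kng1, -0.26 to -0.12 for Proc, -0.30 to -0.10 for Pros1, -0.41 to -0.12 for Serpind1 and 0.15 to 0.40 for Serpinc1. With 3 arrays a group, the median SE of a member's log2 change was 0.146 without the block and 0.089 with it.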
